A study of Rattus norvegicus with 18 samples.

Results

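Interferon-stimulated and antigen processing genes were described across 3 brain regions of female rats treated with estradiol benzoate (EB) or Oil. The module lists 39 genes by symbol. Of these, 37 have a named probe set on the array, 1 each, out of 23188 gene probe sets, and Ifi44l and Xaf1 were not analysed here. Where a symbol had several probe sets the brightest over the 18 samples was to be used, but no member needed that choice. Gene expression was measured on Rat Clariom S Pico arrays with RNA from bilateral tissue punches of 3 nuclei. The arcuate (ARC) and paraventricular (PVN) nuclei lie in the hypothalamus, the solitary tract nucleus (NTS) lies in the hindbrain, and all 3 take part in the control of food intake. Each region gave 3 samples from EB-treated and 3 from Oil-treated rats, 18 arrays in all. All rats, the Oil-treated controls included, were 90-day-old female Sprague-Dawley rats whose ovaries had been removed. The EB-treated rats received 10 µg of EB in 0.1 mL of oil under the skin on days 1 and 2, the Oil-treated rats received 0.1 mL of oil alone, and tissue was taken on day 4. Sample names here give region, treatment and the labels' replicate number. The labels call the 3 samples of a group biological replicates and name 3 rats per treatment, so the arrays of the 3 regions come from the same 6 rats, but which arrays share a rat is not stated.

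Interferons are cytokines that cells release on sensing foreign nucleic acid. Type I interferons act through a complex with STAT2 and IRF9 that binds the interferon-stimulated response element (ISRE) in gene promoters, while interferon gamma acts on the gamma-activated site (GAS). The genes they switch on cut viral RNA, block translation, trap particles, tag proteins with ISG15, and cut and load peptides onto MHC class I molecules. In the healthy brain most of them are kept at a low tonic level, with microglia, border cells and vessels among the sources. The values below are signal intensities (Log 2), already normalized when deposited, so a difference of 1 is a 2-fold change. Tissue punches mix cell types, and fewer cells of a type cannot be told apart from less RNA per cell.

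The region each sample was labelled with was checked against its marker genes. The mean of 4 dorsal vagal markers was 7.56 to 9.89 in the NTS arrays, against 5.15 to 5.57 in all ARC and PVN arrays. That of 5 ARC neuron markers was 8.94 to 12.20 in the ARC, 8.45 to 9.85 in the PVN and 7.38 to 8.74 in the NTS. The ARC and PVN arrays thus overlapped on these markers, through ARC EB 2 at 8.94. The mean of 5 PVN neuron markers, among them oxytocin and vasopressin, was 8.40 to 11.78 in 4 PVN arrays, but only 6.91 in PVN Oil 1 and 6.98 in PVN Oil 3, and it reached 10.35 in ARC Oil 1. Markers of midbrain dopamine neurons averaged 11.84 in ARC EB 2 and 10.33 in ARC EB 3, and 10.11 and 10.08 in PVN Oil 1 and PVN Oil 3, against 6.71 to 9.03 in the other arrays. These 5 arrays stand apart, and comparisons of the ARC and PVN are also given without them. Markers of brain endothelium averaged 7.45 in ARC Oil 2 and 7.26 in PVN Oil 2, against 9.11 to 10.24 in the other arrays, and those of mural cells were also lowest in this pair, at 8.46 and 7.89. The comparisons were therefore run without this pair as well. The background of an array was taken as the median of its 23 background probe sets. It was 6.74 in ARC Oil 1 and 7.37 to 7.60 in the other arrays, and 52.9 to 60.7% of gene probe sets lay above it.

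Many members were dim. Of the 37, 14 lay above background on all 18 arrays, 14 on some and 9 on none. Brightest was B2m, the light chain of MHC class I, at 14.54 to 15.42, above 97.6% of gene probe sets. Adar, which edits adenosine in double-stranded RNA, lay at 11.39 to 12.50, and Cmpk2, a mitochondrial nucleotide kinase, at 10.87 to 11.43. Bst2, the tether that holds budding virus to the cell, and Eif2ak2, the kinase PKR that stops translation on double-stranded RNA, were the next of the bright effectors. The 9 members below background on all arrays were Oasl, Oas2, Oas3, Irf1, Irf7, Isg15, Ifi35, Gbp5 and Zbp1. Of the classical induced genes, Mx1, Isg15, Irf7 and Rsad2 were thus near or below background in these punches, whereas Ifit2, Ifi44 and Ifih1 lay above it on all 18 arrays. Differences among values near or below background are the least certain. Probe sets of OAS, Mx, IFIT and RT1 genes, which have close relatives, may also bind transcripts of a relative.

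**Figure D1:**
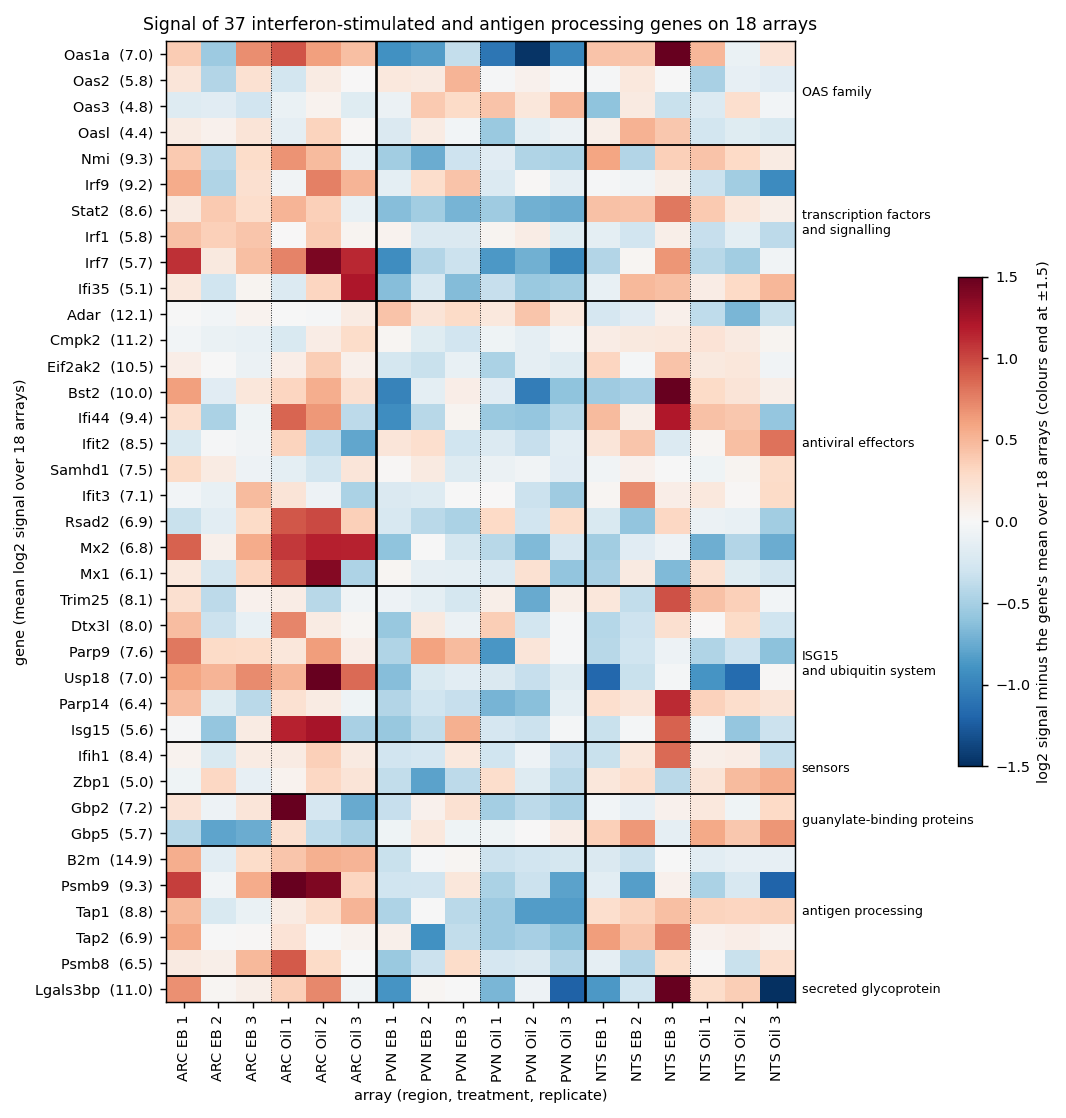
Signal of the 37 members (rows, by role, with the mean log2 signal over 18 arrays in brackets) on each array (columns), as the difference from the member's own mean. PVN arrays are mostly blue; ARC EB 2 is paler than the other ARC arrays and NTS EB 3 is the reddest NTS array.

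Averaged over the 37 members, the signal was 8.07, 7.66 and 7.93 in the ARC of EB-treated rats and 8.19, 8.22 and 7.89 in the ARC of Oil-treated rats. In the PVN it was 7.44, 7.62 and 7.70 with EB and 7.51, 7.47 and 7.46 with Oil. In the NTS it was 7.70, 7.78 and 8.19 with EB and 7.78, 7.76 and 7.67 with Oil. The ARC arrays were thus mostly the highest and the PVN arrays mostly the lowest, whereas EB and Oil overlapped in each region. Of the 37 members, 18 had their highest regional mean in the ARC, 16 in the NTS and 3 in the PVN, and 23 had their lowest in the PVN, 11 in the NTS and 3 in the ARC.

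Between the ARC and the PVN, most members were higher in the ARC. In 1 limma fit of all 18 arrays, which takes arrays of 1 rat as independent, and with p adjusted over all gene probe sets, 15 of 37 members (40.5%) were higher and 2 (5.41%) lower in the ARC at an adjusted p under 0.05. Over all gene probe sets, 14.1% were higher and 7.35% lower, 21.4% in all. The median difference of the members was 0.43, against 0.05 for all gene probe sets, and 32 of 37 differences were above 0. At an added fold of 2 or more on the deposited values, 5 members (13.5%) passed, against 2.23% of gene probe sets. Of these only Psmb9 had signal above background in both regions. Irf7 was below background in both, and Oas1a, Mx2 and Usp18 were below it on all PVN arrays, so their folds were not measured. Of the 15 higher members, 6 had signal above background in both regions, 5 only in the ARC and 4 in neither. For Tap2 and Psmb8 the only ARC array above background was ARC Oil 1, whose background was the lowest, at 6.74. Both lower members were below background on all arrays. Oas3 averaged 4.60 ± 0.11 in the ARC and 5.03 ± 0.21 in the PVN (limma adjusted p = 0.0251), and Gbp5 5.27 ± 0.37 and 5.72 ± 0.10 (limma adjusted p = 0.0363). The call of Oas3 was lost in 6 and that of Gbp5 in 9 of the 18 fits that left out 1 array, with adjusted p up to 0.0615 and 0.0883 by limma.

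All 5 antigen processing members were among the 15. Psmb9 (probe set TC2000001061.rn.2) encodes a catalytic subunit of the immunoproteasome, the form of the proteasome that cuts peptides for MHC class I. Its signal was 10.31, 9.23 and 9.84 in ARC EB and 10.86, 10.68 and 9.60 in ARC Oil. It was 8.98, 8.99 and 9.45 in PVN EB and 8.80, 8.95 and 8.47 in PVN Oil. It was 9.12, 8.44 and 9.34 in NTS EB and 8.80, 9.04 and 8.07 in NTS Oil. The highest 5 arrays were all from the ARC, and only ARC EB 2 fell among the values of the PVN. Psmb9 averaged 10.08 ± 0.64 in the ARC and 8.94 ± 0.32 in the PVN (SD, n = 6 each), a log2 difference of 1.15 (SE 0.25, limma adjusted p = 0.00481) or 2.21-fold.

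Tap1 (probe set TC2000000131.rn.2) is 1 chain of the transporter that carries peptides into the endoplasmic reticulum. It read 9.27, 8.56 and 8.69 in ARC EB and 8.91, 9.06 and 9.30 in ARC Oil. It read 8.33, 8.78 and 8.39 in PVN EB and 8.25, 7.95 and 7.95 in PVN Oil. It read 9.05, 9.12 and 9.24 in NTS EB and 9.12 on each NTS Oil array. The NTS arrays were tightly grouped, and every one lay above all PVN arrays, which overlapped the ARC arrays through PVN EB 2. The ARC exceeded the PVN by 0.69 (SE 0.12, limma adjusted p = 0.00145), while the PVN lay below the NTS by a log2 difference of -0.85 (SE 0.12, limma adjusted p = 0.000102).

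B2m averaged 15.23 ± 0.27 in the ARC and 14.68 ± 0.16 in the PVN (SD, n = 6 each), a difference of 0.55 (SE 0.11, limma adjusted p = 0.00262). In the ARC it read 15.42, 14.72 and 15.15 with EB and 15.29, 15.41 and 15.39 with Oil, so ARC EB 2 again was the lowest array there. Tap2, the second chain of the transporter, averaged 7.0 ± 0.23 in the ARC and 6.38 ± 0.32 in the PVN (limma adjusted p = 0.00653), above background on 1 of 6 ARC arrays and on no PVN array. Psmb8, another immunoproteasome subunit, averaged 6.80 ± 0.34 in the ARC and 6.23 ± 0.29 in the PVN (limma adjusted p = 0.0346), also above background on 1 ARC array and no PVN array. For both genes this was ARC Oil 1, with the lowest background, 6.74. Tap2 was brighter in ARC EB 1, at 7.43, yet below the background of 7.60 there. The 8 constitutive proteasome subunits measured for comparison differed little, with none called and a median difference of 0.07.

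The 4 genes other than B2m lie next to each other in the MHC region of rat chromosome 20, and Tap1 and Psmb9 are read in opposite directions from a shared stretch. In the RefSeq promoter windows (build GRCr8, 250 bases before to 50 after the annotated start), the Tap1 window at chr20:4668494-4668793 on the minus strand and the Psmb9 window at chr20:4668750-4669049 on the plus strand overlap by 44 bases. Both are printed 5′ to 3′ on the strand of the gene because the pair shares this stretch yet differs in its regional pattern. Capitals mark a match to the ISRE (GAAANNGAAA on either strand), which the Psmb9 window did not hold. The Tap1 match, within chr20:4668640-4668679, lies between the annotated starts of both genes. It falls outside the Psmb9 window because that window reaches only 250 bases before the start of Psmb9.
Tap1: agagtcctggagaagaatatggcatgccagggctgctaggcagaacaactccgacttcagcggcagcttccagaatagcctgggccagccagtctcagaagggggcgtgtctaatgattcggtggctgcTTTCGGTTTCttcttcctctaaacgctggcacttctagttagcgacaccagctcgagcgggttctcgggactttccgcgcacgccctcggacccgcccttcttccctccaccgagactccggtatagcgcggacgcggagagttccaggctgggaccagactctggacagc
Psmb9: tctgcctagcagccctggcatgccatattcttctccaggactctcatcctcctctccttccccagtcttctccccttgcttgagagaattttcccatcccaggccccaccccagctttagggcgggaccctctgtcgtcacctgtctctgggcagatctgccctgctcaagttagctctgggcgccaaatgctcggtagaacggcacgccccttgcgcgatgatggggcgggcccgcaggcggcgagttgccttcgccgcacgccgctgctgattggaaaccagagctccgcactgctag
Psmb9 was higher in the ARC than in the NTS by 1.28 (SE 0.25, limma adjusted p = 0.000759), and Tap1 differed there by -0.16 with a limma adjusted p of 0.305. Across the 18 arrays, after each group's mean was taken off, the signals of the pair correlated at r = 0.09.

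Of the 6 transcription factors and signalling members, 5 were higher in the ARC than in the PVN. Stat2 (probe set TC0700000026.rn.2) is the subunit of the type I interferon transcription complex that carries the activation domain. Its signal was 8.71, 8.97 and 8.84 in ARC EB and 9.08, 8.93 and 8.47 in ARC Oil. It was 7.93, 8.05 and 7.88 in PVN EB and 8.05, 7.86 and 7.83 in PVN Oil. It was 9.01, 9.00 and 9.37 in NTS EB and 8.96, 8.75 and 8.67 in NTS Oil. Every PVN array lay below every ARC and every NTS array. Stat2 averaged 8.83 ± 0.22 in the ARC and 7.93 ± 0.10 in the PVN (SD, n = 6 each), a difference of 0.90 (SE 0.11, limma adjusted p = 9.67e-05) or 1.87-fold. The PVN was lower than the NTS by a log2 difference of -1.03 (SE 0.11, limma adjusted p = 7.06e-06), while ARC and NTS differed by -0.13 with a limma adjusted p of 0.375.

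Irf7 (probe set TC0100006940.rn.2), the factor that amplifies type I interferon production, gave 6.82, 5.87 and 6.18 in ARC EB and 6.47, 7.13 and 6.85 in ARC Oil. It gave 4.80, 5.28 and 5.40 in PVN EB and 4.86, 5.0 and 4.77 in PVN Oil. It gave 5.29, 5.76 and 6.39 in NTS EB and 5.30, 5.20 and 5.67 in NTS Oil. All 18 values lay below the background of their array, so no fold is given, although every ARC array was above every PVN array (limma adjusted p = 0.00013). Nmi, which binds STAT proteins, averaged 9.53 ± 0.40 in the ARC and 8.87 ± 0.19 in the PVN, a difference of 0.66 (SE 0.19, limma adjusted p = 0.0207). Irf1 and Ifi35 were also called higher, at 6.05 ± 0.20 and 5.33 ± 0.54 in the ARC and 5.70 ± 0.15 and 4.64 ± 0.17 in the PVN, below background in both. Irf9, the DNA-binding partner of STAT2, averaged 9.46 ± 0.45 in the ARC and 9.24 ± 0.25 in the PVN and was not called there.

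In the OAS family, some of whose members make the messenger that activates RNase L, only Oas1a was ever above background. Oas1a (probe set TC1200000677.rn.2) read 7.37, 6.45 and 7.69 in ARC EB and 7.93, 7.60 and 7.44 in ARC Oil. It read 6.08, 6.15 and 6.63 in PVN EB and 5.91, 5.52 and 6.02 in PVN Oil. It read 7.41, 7.41 and 8.65 in NTS EB and 7.48, 6.89 and 7.19 in NTS Oil. No PVN array was above background, against 3 of 6 in the ARC and 2 of 6 in the NTS, and ARC EB 2 alone of the ARC arrays fell among the PVN values. Oas1a averaged 7.41 ± 0.51 in the ARC and 6.05 ± 0.36 in the PVN, at least 1.003-fold higher in the ARC once PVN values were set to background (limma adjusted p = 0.00115). Against the NTS, at 7.50 ± 0.60, the PVN was at least 1.07-fold lower (limma adjusted p = 0.000253). Oas2, Oas3 and Oasl stayed between 3.89 and 6.34 on all arrays.

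Among 11 antiviral effectors, Mx2 and Eif2ak2 were higher in the ARC than in the PVN. Mx2 (probe set TC1100000369.rn.2), a dynamin-like GTPase, read 7.67, 6.87 and 7.35 in ARC EB and 7.85, 7.95 and 7.95 in ARC Oil. It read 6.19, 6.79 and 6.53 in PVN EB and 6.37, 6.13 and 6.54 in PVN Oil. It read 6.27, 6.62 and 6.71 in NTS EB and 6.06, 6.36 and 6.04 in NTS Oil. Every ARC array was above every PVN and NTS array, and only ARC arrays, 4 of 6, were above background. Mx2 averaged 7.61 ± 0.43 in the ARC and 6.42 ± 0.25 in the PVN, at least 1.15-fold higher in the ARC (limma adjusted p = 7.74e-05), and at least 1.11-fold higher than in the NTS at 6.34 ± 0.28 (limma adjusted p = 7.41e-06). Eif2ak2 averaged 10.58 ± 0.15 in the ARC and 10.24 ± 0.14 in the PVN, a difference of 0.34 (SE 0.10, limma adjusted p = 0.0218), without overlap of the arrays. Adar ran the other way, at 12.09 ± 0.06 in the ARC and 12.35 ± 0.12 in the PVN, also without overlap, but missed the threshold with an adjusted p of 0.0516 by limma.

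Usp18, the protease that removes ISG15 from proteins, was the 1 member of the ISG15 and ubiquitin system called in this comparison. It read 7.60, 7.52 and 7.72 in ARC EB and 7.52, 9.17 and 7.87 in ARC Oil, against 6.38 to 6.86 in the PVN arrays. ARC Oil 2 stood alone, yet the lowest ARC array was still above the highest PVN array. Usp18 was at least 1.41-fold higher in the ARC than in the PVN (limma adjusted p = 0.00603), and at least 1.36-fold higher than in the NTS, where it averaged 6.42 ± 0.55 (limma adjusted p = 0.000435). Zbp1, a sensor of Z-form nucleic acid, was called at 5.08 ± 0.19 in the ARC and 4.66 ± 0.35 in the PVN, below background in both. Of the 37 members, 5 were higher in all ARC than in all PVN arrays and 1 (Adar) lower, 13.5 and 2.70% of the members against 5.91 and 2.88% of gene probe sets.

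**Figure D2:**
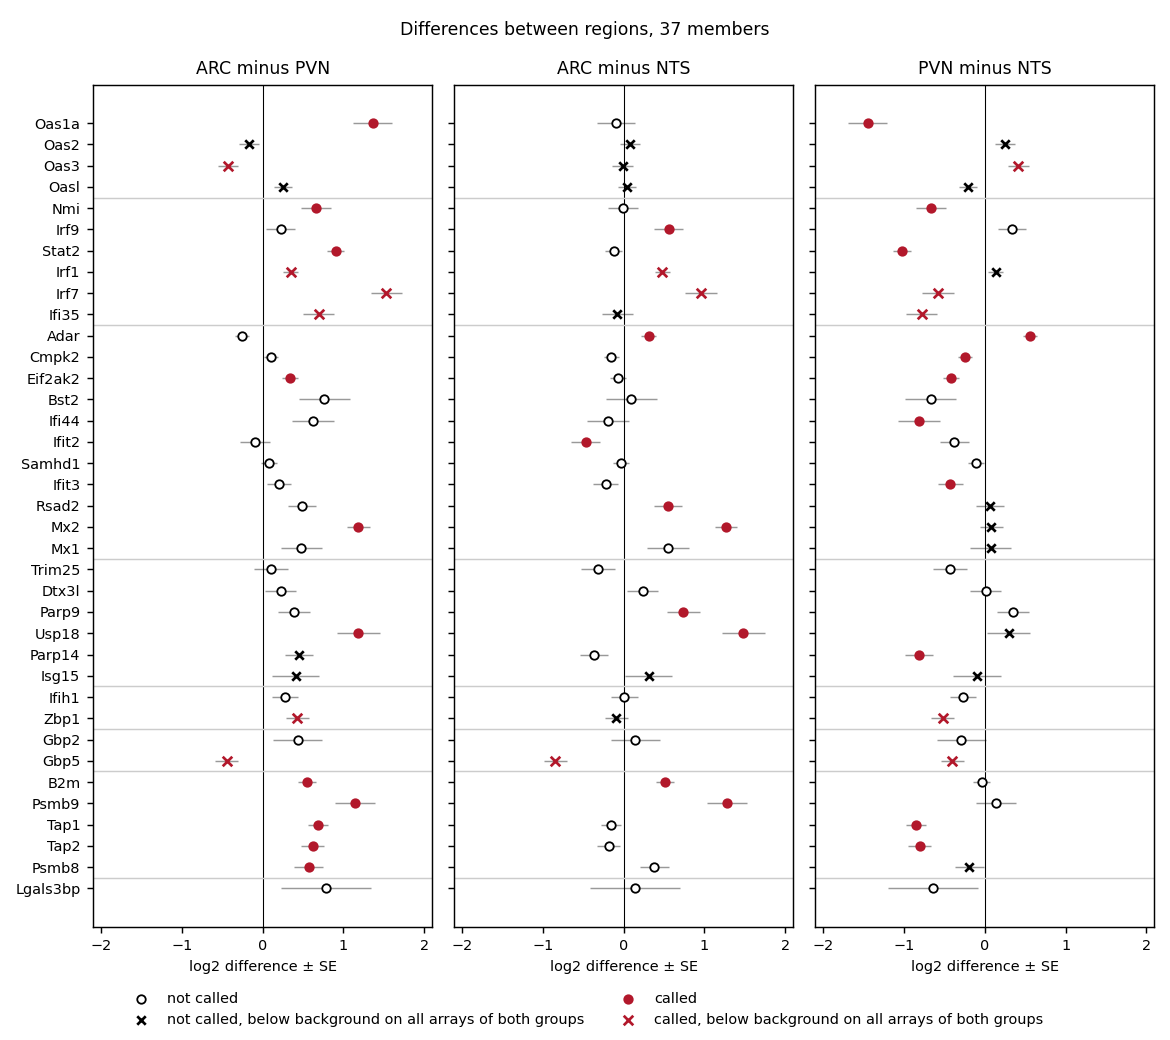
Log2 difference of each member between regions (point, with SE as bar) for ARC minus PVN, ARC minus NTS and PVN minus NTS, by role from top to bottom. Red symbols passed an adjusted p under 0.05 by limma, and crosses mark members below background on all arrays of both regions; 15 members lie right of 0 as called in ARC minus PVN and 14 lie left of 0 as called in PVN minus NTS.

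Fewer members were called higher in the ARC without the arrays that stand apart. Without PVN Oil 1, PVN Oil 3, ARC EB 2, ARC EB 3 and ARC Oil 1, 7 members were called higher in the ARC than in the PVN, and all 7 were among the 15: Oas1a, Irf7, Mx2, Stat2, Ifi35, Tap1 and B2m. No member was then called lower. This left 3 arrays of the ARC and 4 of the PVN, with 1 array each for ARC EB and PVN Oil, which were assumed to vary like the other groups. The 8 members no longer called were all still above 0, with a median difference of 0.60, against 0.59 on all arrays, and a median SE of 0.24, against 0.16. Their differences were 0.34 to 1.39 without the 5 arrays, with adjusted p of 0.0568 to 0.443 by limma, and 0.34 to 1.18 on all arrays. Psmb9, at 1.18 without them and 1.15 on all arrays, was 1 of the 8. Without ARC Oil 2 and PVN Oil 2, 10 members were called higher, all among the 15, and 1 lower. From the same fit of 18 arrays, the ARC to PVN contrast called 4 members higher in the EB arrays alone (Irf1, Irf7, Mx2 and Stat2) and 9 in the Oil arrays alone, each from 3 arrays a region. Irf7, Mx2 and Stat2 were called in both.

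Against the NTS the PVN was again lower. Of the 37 members, 14 (37.8%) were lower and 2 (5.41%) higher in the PVN than in the NTS, against 18.5 and 19.0% of gene probe sets (37.5% in all), with a median difference of -0.27 (0.00 over all gene probe sets). At an added fold of 2 or more on the deposited values, Stat2 and Oas1a passed (5.41%, against 5.55% of gene probe sets). Oas1a was below background on all PVN arrays, and its lower bound was 1.07-fold. Beside Stat2, Tap1 and Oas1a, the lower members with the smallest adjusted p were Tap2, Parp14 and Eif2ak2. Eif2ak2 averaged 10.24 ± 0.14 in PVN arrays and 10.66 ± 0.19 in NTS arrays, a difference of -0.42 (SE 0.10, limma adjusted p = 0.0038). Tap2 averaged 6.38 ± 0.32 in the PVN and 7.18 ± 0.30 in the NTS (limma adjusted p = 0.00044), above background on 2 of 6 NTS arrays and no PVN array. Parp14, a mono-ADP-ribosyltransferase, averaged 5.95 ± 0.21 and 6.77 ± 0.36 there (limma adjusted p = 0.00164), with only NTS EB 3 above background. The rest of the 14 were Ifi35, Zbp1, Nmi, Ifi44, Irf7, Cmpk2, Gbp5 and Ifit3, and 4 of the 14 were below background in both regions.

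Adar was the measured member that was higher in the PVN than in the NTS. Its signal was 12.50, 12.27 and 12.36 in PVN EB and 12.24, 12.49 and 12.24 in PVN Oil. It was 11.83, 11.91 and 12.16 in NTS EB and 11.69, 11.39 and 11.74 in NTS Oil. Every PVN array was above every NTS array, and the difference was 0.56 (SE 0.09, limma adjusted p = 0.000194). Oas3 was called too, at 5.03 ± 0.21 in the PVN and 4.62 ± 0.31 in the NTS (limma adjusted p = 0.0178), below background in both, and this call was lost without NTS EB 1 (limma adjusted p = 0.0512). In all, 1 member was higher and 8 were lower without overlap of the arrays, 2.70 and 21.6% against 9.50 and 8.22% of gene probe sets. Without the 5 arrays, 8 members stayed lower and Adar stayed higher.

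Between the ARC and the NTS a smaller share of members was called than of gene probe sets at large. In the ARC 10 members (27.0%) were higher and 2 (5.41%) lower than in the NTS, against 26.3 and 18% of gene probe sets (44.3% in all), and the median difference was 0.04 against 0.06. On the deposited values, Mx2, Usp18 and Psmb9 also differed by a fold of 2 or more (8.11%, against 7.13% of gene probe sets). Mx2 and Usp18 were below background on all NTS arrays, with lower bounds of 1.11-fold and 1.36-fold. B2m averaged 15.23 ± 0.27 in the ARC and 14.72 ± 0.11 in the NTS, a difference of 0.51 (SE 0.11, limma adjusted p = 0.00151). Parp9, which acts with the ubiquitin ligase DTX3L, averaged 7.99 ± 0.27 and 7.25 ± 0.18, a difference of 0.74 (SE 0.20, limma adjusted p = 0.00814), without overlap. On 5 NTS arrays Parp9 was below background, so this difference is in part one from the background. Irf1, Irf7, Irf9, Adar and Rsad2, a radical SAM enzyme that blocks viral RNA synthesis, were the other higher members. Of these, Irf1 and Irf7 were below background in both regions, and Rsad2 on all NTS arrays and 4 ARC arrays. Irf1 averaged 6.05 ± 0.20 in the ARC and 5.57 ± 0.17 in the NTS (limma adjusted p = 0.00106), and Irf7 6.55 ± 0.47 and 5.60 ± 0.45 (limma adjusted p = 0.00123). The lower members were Gbp5, a guanylate-binding GTPase of cell-autonomous immunity, at 5.27 ± 0.37 in the ARC and 6.12 ± 0.30 in the NTS, and Ifit2, which binds foreign RNA, at 8.30 ± 0.38 and 8.77 ± 0.36. Without overlap of the arrays 3 members were higher in the ARC (8.11%) and 0 lower, against 12.6 and 7.71% of gene probe sets. Gbp5 (limma adjusted p = 0.000246) was below background in both regions, and Ifit2 differed by -0.47 (SE 0.18, limma adjusted p = 0.0449). The call of Ifit2 was lost in 13 of the 18 fits that left out 1 array (adjusted p up to 0.121 by limma), and also with the replicate block, with the 12 arrays of both regions, with EB arrays only and without ARC Oil 2 and PVN Oil 2. In the EB arrays alone 3 members were called higher in the ARC (Irf1, Mx2 and Usp18), and 9 in the Oil arrays alone.

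**Figure D3:**
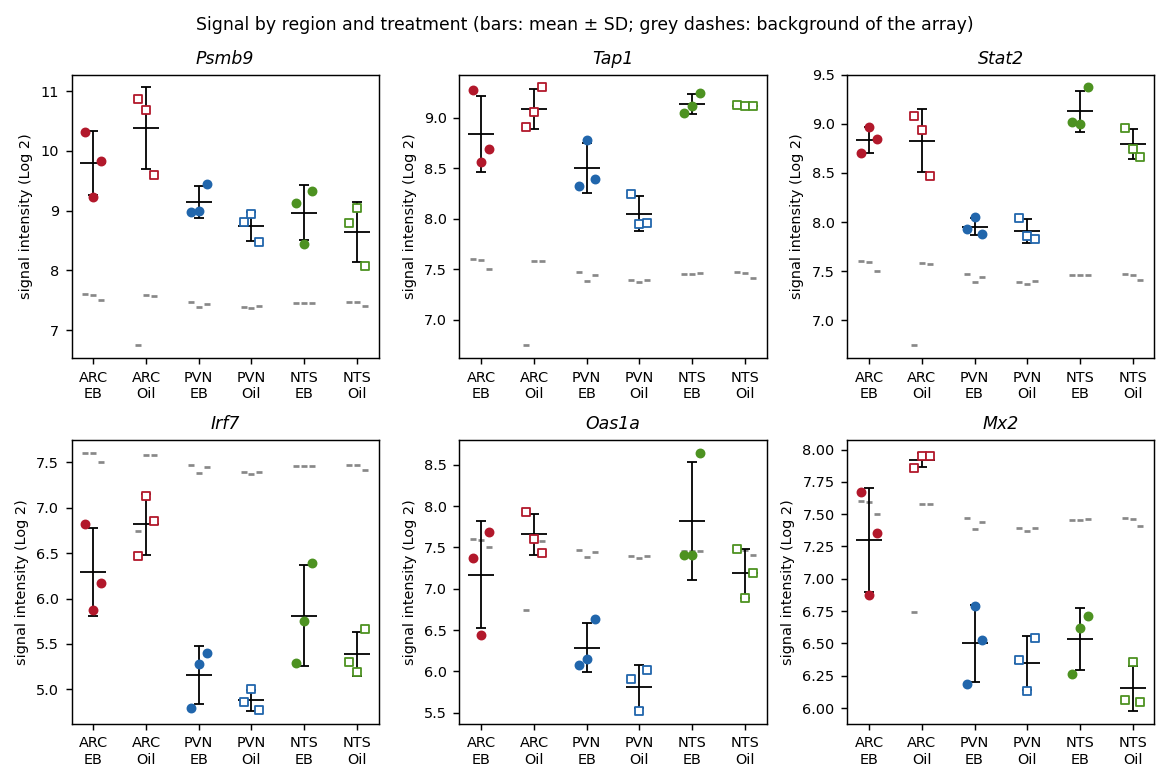
Signal intensity (Log 2) of Psmb9, Tap1, Stat2, Irf7, Oas1a and Mx2 in each array by region and treatment, with filled circles for EB, open squares for Oil, black bars for the mean ± SD (n = 3) and grey dashes for the background of each array. The Stat2 values of the PVN lie below all others, and Irf7 lies below background throughout.

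Genes of other lists moved with the ARC to PVN difference. Of 31 further interferon-stimulated genes, 17 were higher (54.8%) and 1 lower in the ARC, with a median of 0.52, and of 25 genes of MHC class I and II presentation 14 were higher (56.0%) and 1 lower, with a median of 0.41, against 14.1% higher and 7.35% lower of all gene probe sets. Of 29 interferon ligands, receptors and signalling genes 4 were higher (13.8%, near that of all gene probe sets), Stat3, Dhx58, Socs3 and Tlr4, and none lower. RT1-Da, the alpha chain of a rat MHC class II molecule, averaged 9.09 ± 0.52 in the ARC and 5.93 ± 0.46 in the PVN, where no array was above background. Sp100, a nuclear body protein, averaged 8.21 ± 0.22 in the ARC and 6.54 ± 0.28 in the PVN (limma adjusted p = 0.000164). Its PVN mean also lay under the background of every PVN array, 7.37 to 7.47. Stat3 averaged 11.69 ± 0.48 in the ARC and 10.71 ± 0.13 in the PVN, a difference of 0.98 (SE 0.17, limma adjusted p = 0.00127). The receptor chain Ifnar1 was bright in all arrays, 12.61 to 13.25, whereas the ligands Ifnb1 and Ifng lay below background on all 18, at 4.61 to 5.41 and 5.30 to 6.49. Between PVN and NTS, 1 of the 31 further genes was higher and 9 (29.0%) were lower in the PVN, and 1 and 9 (36.0%) of the 25 MHC genes, against 19.0 and 18.5% of all gene probe sets. Between ARC and NTS, 8 (25.8%) and 2 of the 31 were higher and lower in the ARC, near the 26.3% higher of all gene probe sets, and 12 (48.0%) and 1 of the 25 MHC genes.

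Markers of the meninges, the membranes around the brain, also moved with this difference. All 4 (Dcn, Col1a1, Slc22a6 and Ptgds) were higher in the ARC than in the PVN, with a median difference of 2.45. Their mean was 10.03 to 12.46 in ARC arrays, 8.42 to 10.51 in PVN arrays and 9.41 to 10.45 in NTS arrays. None of 8 microglial markers was called, with a median of 0.24, and none of 6 endothelial markers, with a median of -0.08, which ARC Oil 2 and PVN Oil 2 with their low endothelial signal both enter. Of 8 markers of border macrophages and other leukocytes 2 were higher, and their mean was 5.87 to 6.58 in ARC arrays and 5.59 to 6.08 in PVN arrays, under the background of every array. Within groups, over 18 arrays whose group means were taken off, the members' mean signal correlated with that of the meningeal markers at r = 0.71, of ARC neuron markers at 0.72, of choroid plexus markers at 0.66, of microglial markers at 0.35 and of general neuron markers at -0.75. The correlation was 0.60 with the mean of the constitutive proteasome subunits, which are not cell type markers, and 0.48 with astrocyte markers. With endothelial markers it was -0.15 and with oligodendrocyte markers -0.29. These points share the array and its dissection, and the part of these cell types in the regional differences was not tested.

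**Figure D4:**
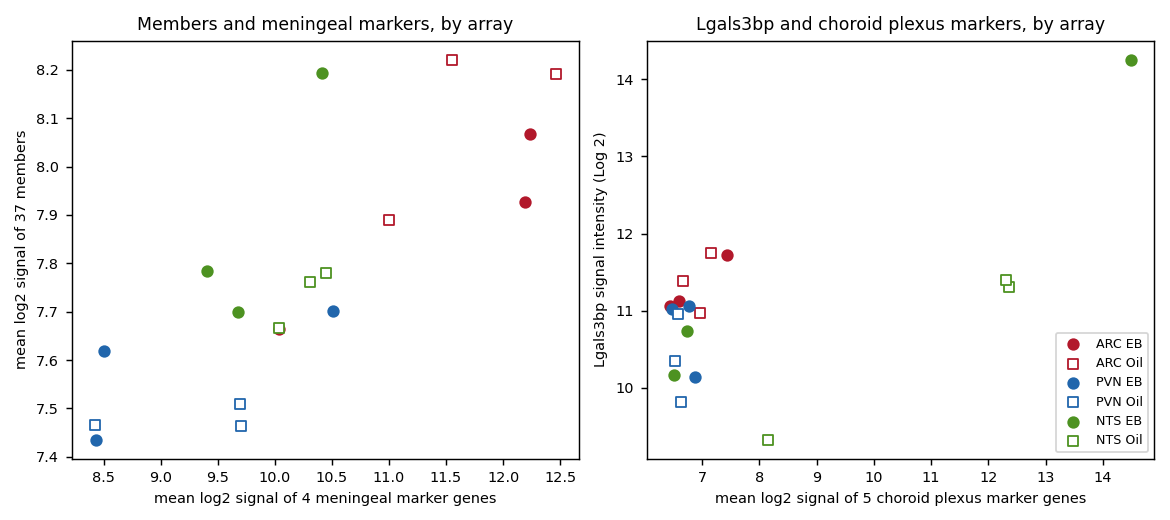
Left, mean log2 signal of the 37 members against that of 4 meningeal markers, 1 point an array. Right, Lgals3bp signal against the mean of 5 choroid plexus markers; NTS EB 3 lies at the upper right in it, and filled symbols are EB and open symbols Oil.

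Lgals3bp, a secreted galectin-binding glycoprotein, varied most within a region. It read 10.17, 10.74 and 14.25 in NTS EB and 11.31, 11.40 and 9.33 in NTS Oil, against 9.82 to 11.75 in all ARC and PVN arrays. The mean of the choroid plexus markers in the same arrays was 6.51, 6.74 and 14.50 with EB and 12.36, 12.30 and 8.14 with Oil. NTS EB 3 was highest in both, and within groups the 2 measures correlated at r = 0.94 over 18 arrays. NTS EB 3 had the highest NTS value for 22 of 37 members, Bst2 at 11.60 among them, and NTS Oil 3 the lowest for 12. In the ARC, ARC EB 2 had the lowest value for 18 members. The part of choroid plexus tissue in these values was not tested.

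The comparison of EB with Oil asked whether estradiol changes these genes. In none of the regions did a member pass the study's rule of an unadjusted p of 0.05 or less with a fold of 2 or more in limma, which 0.479% of gene probe sets passed for the ARC, 0.332% for the PVN and 0.0776% for the NTS. No member had an adjusted p under 0.05 either. At an unadjusted p under 0.05, ARC samples differed for 2 of 37 members (5.41%), PVN samples for 4 (10.8%) and NTS samples for 3 (8.11%), against 5.66, 6.39 and 4.65% of gene probe sets. The signs leaned one way within a region, with 27 of 37 members lower with EB in the ARC (median -0.18), 27 higher in the PVN (median 0.11) and 25 higher in the NTS (median 0.16). The medians of all gene probe sets were 0.01, 0.00 and -0.01. Members varied together from array to array, so these signs are not separate results. ARC EB 2 had the lowest ARC value for 18 members and NTS EB 3 the highest NTS value for 22. The part of these single arrays in the signs was not tested. Without overlap of the groups, 0 members were higher and 2 (5.41%) lower with EB in the ARC, against 5.77 and 5.43% of gene probe sets. In the PVN 5 (13.5%) were higher and 0 lower, against 5.96 and 6.39%, and in the NTS 6 (16.2%) were higher and 0 lower, against 5.53 and 5.65%.

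In the ARC the smallest p belonged to Rsad2. Its signal was 6.55, 6.73 and 7.17 with EB and 7.82, 7.88 and 7.24 with Oil, below background on all EB arrays. The groups did not overlap, and the EB-treated samples were at least 1.06-fold lower (unadjusted p = 0.00809, adjusted p = 0.852 by limma). Mx2 read 7.67, 6.87 and 7.35 with EB and 7.85, 7.95 and 7.95 with Oil, a difference of -0.62 (SE 0.21, unadjusted p = 0.0185, adjusted p = 0.852 by limma). The Oil values of Mx2 lay within 0.10 of each other, and the spread was in the EB samples. Gbp5 and Irf7, next by p, were below background on all ARC arrays. Gbp5 read 5.29, 4.91 and 4.96 with EB and 5.94, 5.32 and 5.22 with Oil (unadjusted p = 0.0809, adjusted p = 0.852 by limma). Irf7 averaged 6.29 ± 0.48 with EB and 6.82 ± 0.33 with Oil (unadjusted p = 0.0914, adjusted p = 0.858 by limma). The groups overlapped for both. For Isg15, the ubiquitin-like modifier, and Mx1, another dynamin-like GTPase, the Oil samples themselves lay far apart. Isg15 read 5.57, 5.01 and 5.72 with EB and 6.74, 6.83 and 5.10 with Oil, and Mx1 read 6.27, 5.84 and 6.44 with EB and 7.05, 7.49 and 5.65 with Oil. Without ARC Oil 3, Isg15, Mx1 and Rsad2 passed the study's rule as lower with EB, with adjusted p of 0.858 for each by limma, and without ARC EB 3 Rsad2 did, with an adjusted p of 0.997. Of 5 midbrain dopamine markers 2 passed the rule as higher with EB in the ARC (median difference 1.08), and of 5 PVN neuron markers 1 as lower (median difference -1.35), and their part in these values was not tested.

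In the PVN Tap1 led, at 8.33, 8.78 and 8.39 with EB and 8.25, 7.95 and 7.95 with Oil. Every EB sample was above every Oil sample, and the difference was 0.45 (SE 0.17, unadjusted p = 0.0293, adjusted p = 0.746 by limma). PVN Oil 1 and PVN Oil 3, with low PVN neuron markers, are 2 of the 3 Oil samples in this comparison. Of 5 PVN neuron markers 2 passed the study's rule as higher with EB (median difference 1.20), and of 5 midbrain dopamine markers 2 as lower (median difference -2.29), and their part in the Tap1 value was not tested. Psmb9 also did not overlap, at 8.98, 8.99 and 9.45 with EB and 8.80, 8.95 and 8.47 with Oil (unadjusted p = 0.0689 by limma). Gbp2, Rsad2 and Oas1a were next by p, all below background on the 6 PVN arrays, and of these Rsad2 was lower with EB. Gbp2 read 6.81, 7.21 and 7.39 with EB and 6.64, 6.76 and 6.66 with Oil (unadjusted p = 0.0304, adjusted p = 0.746 by limma). Oas1a read 6.08, 6.15 and 6.63 with EB and 5.91, 5.52 and 6.02 with Oil (unadjusted p = 0.0459, adjusted p = 0.779 by limma), and like Gbp2 it did not overlap. Rsad2 read 6.64, 6.48 and 6.41 with EB and 7.18, 6.60 and 7.17 with Oil, with overlap (unadjusted p = 0.0353, adjusted p = 0.755 by limma).

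In the NTS Tap2 led, at 7.48, 7.27 and 7.58 with EB and 6.92, 6.95 and 6.90 with Oil. All EB samples were above all Oil samples, of which none was above background, and no lower bound of the fold exceeded 1 (unadjusted p = 0.00449, adjusted p = 0.934 by limma). Irf9 read 9.18, 9.14 and 9.29 with EB and 8.88, 8.68 and 8.26 with Oil, a difference of 0.60 (SE 0.18, unadjusted p = 0.0116, adjusted p = 0.934 by limma). Adar read 11.83, 11.91 and 12.16 with EB and 11.69, 11.39 and 11.74 with Oil, a difference of 0.36 (SE 0.15, unadjusted p = 0.0524, adjusted p = 0.934 by limma). Oasl, second by p, read 4.53, 4.97 and 4.85 with EB and 4.17, 4.26 and 4.21 with Oil, all below background (unadjusted p = 0.00556, adjusted p = 0.934 by limma). Both groups stayed apart for Irf9, Adar and Oasl, as they did for Stat2 and for Oas2, which was below background. The mean of the microglial markers also stayed apart, at 8.90 to 9.01 with EB and 8.65 to 8.85 with Oil, and 3 of the 8 (P2ry12, C1qa and C1qb) did so singly. None of the 8 passed the study's rule, and their median difference was 0.18. None of 5 choroid plexus markers passed it either, with a median difference of -1.80 and the wide spread between arrays given above. The part of both in the NTS values was not tested.

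**Figure D5:**
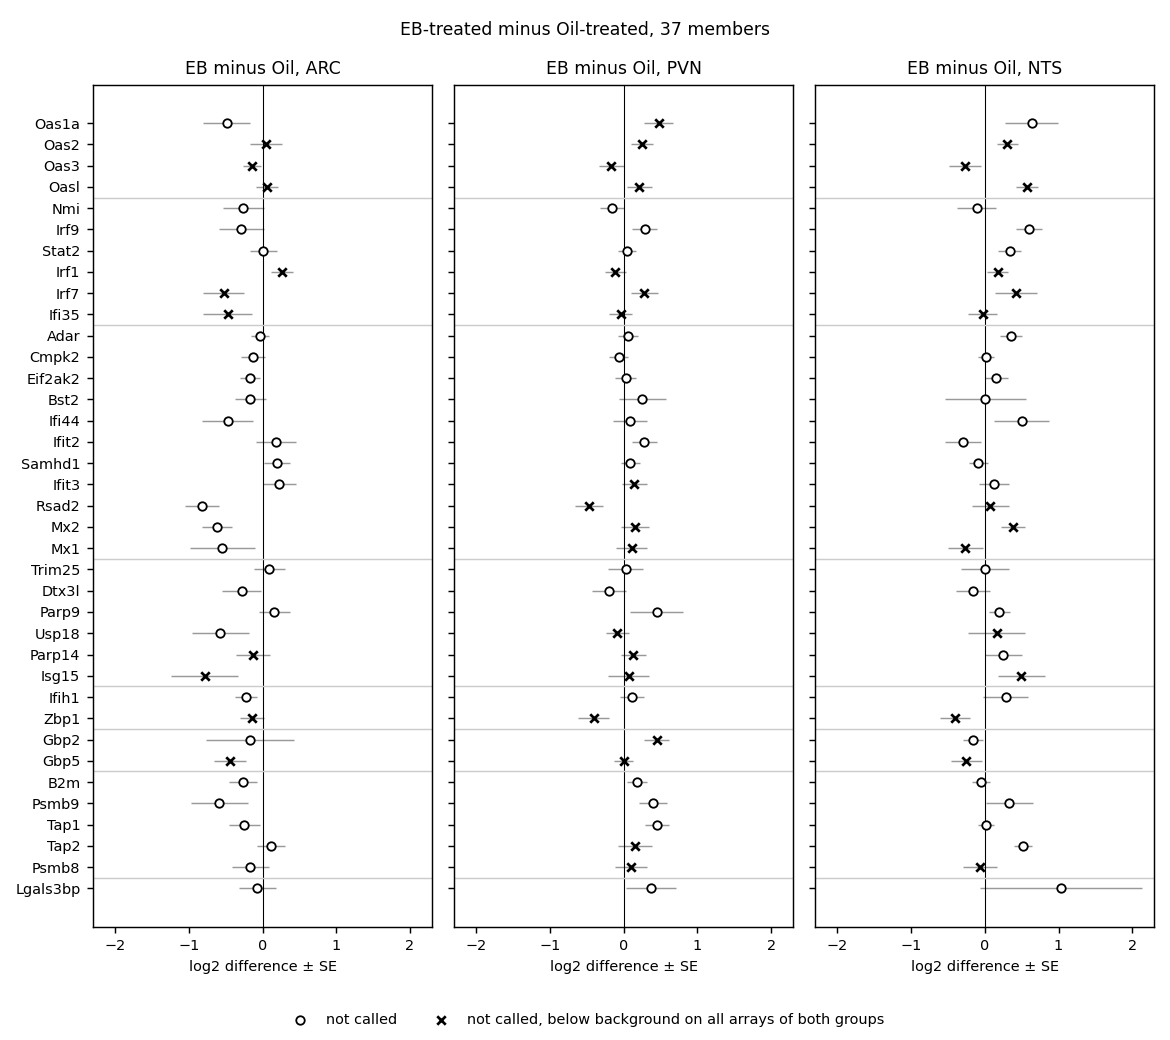
Log2 difference EB minus Oil of each member (point, with SE as bar) in the ARC, PVN and NTS, from 3 samples a group. Crosses mark members below background on all 6 arrays; most points lie left of 0 in the ARC and right of 0 in the PVN and NTS, and none was called.

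The EB effect was also compared between regions in the fit of 18 arrays. No member was called, and no gene probe set was (0%). At an unadjusted p under 0.05, 2 of 37 members differed between ARC and PVN, 8 between ARC and NTS and 0 between PVN and NTS, against 5.02, 6.10 and 3.88% of gene probe sets. For ARC against NTS the smallest p was that of Mx2, whose EB effect differed by -1.0 (SE 0.28, unadjusted p = 0.00273, adjusted p = 0.791 by limma). Mx2 differed by -0.62 in the ARC and read 6.53 ± 0.24 in NTS EB and 6.15 ± 0.18 in NTS Oil, below background. The 8 members were read from the same arrays, on which members varied together, so they are not 8 separate results. The comparisons of the ARC with the PVN and with the NTS also share the ARC arrays. Averaged over the 3 regions, no member was called (smallest adjusted p = 0.468, Oasl, by limma), against 0.00431% of gene probe sets, and 4 of 37 (10.8%) had an unadjusted p under 0.05, against 7.68% of gene probe sets.

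Among companion genes, 1 of the further interferon-stimulated genes passed the study's rule for EB. Oasl2, an OAS-like gene, averaged 7.64 ± 0.30 with EB and 8.65 ± 0.51 with Oil in the ARC (SD, n = 3 each), a difference of -1.01 (SE 0.28, unadjusted p = 0.00735, adjusted p = 0.852 by limma). None of the other 30, of the 29 signalling genes or of the 25 MHC genes passed it in the ARC, and none of any of these lists did in the PVN or NTS.

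The promoters of the members were searched for shared letters. The members were listed as interferon-stimulated and antigen processing genes, and interferons act through the ISRE and the GAS. A high share of such matches among them is therefore not a separate result. Windows were found in the RefSeq table (GRCr8) for 30 members and not for Oas2, Ifit2, Isg15, Mx2, Usp18, Zbp1 and Adar. The ISRE was searched as GAAANNGAAA on both strands, where the other strand reads TTTCNNTTTC, and 19 of 30 members (63.3%) held a match, against 1312 of 33469 windows (3.92%) of the same length. The GAS, searched as TTCNNNGAA, was matched in 7 of 30 (23.3%), against 8.87%. The palindromic estrogen response element, searched as GGTCANNNTGACC, was matched in 0 of 30 and in 9 of all windows (0.0269%). Of the members called higher in the ARC than in the PVN, 8 of the 12 with a window held an ISRE match, as did 9 of the 16 that were not called and both that were lower. No ISRE match was found in the 8 windows of the constitutive proteasome subunits. Matches are letters in a window, not measured binding.

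The sites of those 8 members are shown because they were both called higher in the ARC than in the PVN and held a match. Members not called or called lower also held matches, as given above. Each site has 15 bases on either side, 5′ to 3′ on the strand of the gene and with the match in capitals. All are from GRCr8, in the order Oas1a at chr12:41330416-41330455, Irf7 at chr1:205800068-205800107, Nmi at chr3:56848619-56848658, B2m at chr3:129549165-129549204, Eif2ak2 at chr6:21941123-21941162, Tap2 at chr20:4652313-4652352, Psmb8 at chr20:4657011-4657050 and Tap1 at chr20:4668640-4668679. Oas1a, B2m and Eif2ak2 are on the plus strand and the others on the minus strand.
Oas1a: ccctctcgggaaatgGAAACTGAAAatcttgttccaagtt
Irf7: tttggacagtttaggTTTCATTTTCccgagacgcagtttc
Nmi: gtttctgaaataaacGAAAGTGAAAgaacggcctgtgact
B2m: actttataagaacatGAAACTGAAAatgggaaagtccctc
Eif2ak2: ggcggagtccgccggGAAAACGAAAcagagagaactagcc
Tap2: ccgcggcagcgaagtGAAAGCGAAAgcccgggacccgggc
Psmb8: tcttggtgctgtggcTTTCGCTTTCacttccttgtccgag
Tap1: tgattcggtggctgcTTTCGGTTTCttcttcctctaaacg
Oas1a held a further match 6 bases upstream of the one shown that overlaps it. For Irf1, the classical target of interferon gamma, the GAS match is shown at chr10:38417778-38417816 on the plus strand.
Irf1: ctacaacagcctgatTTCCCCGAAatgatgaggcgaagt

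Members also varied together from array to array. With each group's mean taken off, the median correlation over 666 pairs of members was 0.16, against 0.00 over all pairs of gene probe sets, and 17.0% of member pairs were over 0.5, against 5.75%. The highest were Ifi44 with Psmb9 at 0.89, Ifih1, the RNA sensor MDA5, with Lgals3bp at 0.89, Psmb9 with Nmi at 0.84 and Bst2 with Lgals3bp at 0.79, each over 18 arrays. Genes close to each other on a chromosome did not all do so. Parp14 with Dtx3l stood at 0.60 and Gbp2 with Gbp5 at 0.61, but Parp9 with Dtx3l at 0.26. Tap1 with Tap2 stood at 0.02, Tap1 with Psmb8 at -0.20 and Mx1 with Mx2 at -0.04. Tap2, Psmb8, Mx1, Mx2, Parp14, Gbp2 and Gbp5 were below background on most arrays, so the values with them are the least certain. These values rest on the same arrays, so a few arrays such as NTS EB 3 enter many pairs.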

How the data were processed

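RNA of 18 tissue punches, 3 for each of 6 groups, was hybridised to Rat Clariom S Pico arrays. The deposited values are log2 signals, background-adjusted, normalized between arrays and summarised per probe set by an RMA-type method at the array service, which the authors analysed in Transcriptome Analysis Console. No further normalization was done. The platform annotation gave 15049 of 23188 gene probe sets 1 gene symbol and 8139 none. In all, 1646 control probe sets were left out, and 23 of them gave the background median of each array. Arrays carry no read depth, and their number limits the precision.

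EB and Oil were compared within each region with limma 3.58.1 in R 4.3.3 (lmFit, eBayes) on 6 arrays, with the study's rule for a call, and regions, the average EB effect and its differences between regions in a fit of 18 arrays with 6 group means. Adjusted p are Benjamini-Hochberg values over 23188 probe sets. The members and lists were chosen with earlier results of these data known. Values and tests were given for the 4 members with the smallest p in each EB comparison and up to 6 called members per direction in each region comparison, and companions were named among those called, up to 4 per list. Other named members, among them Isg15, Mx1 and Lgals3bp, and Ifnar1, Ifnb1 and Ifng were chosen after their values were seen. Where 1 group was below background on all arrays, its values were set to background to give an "at least" fold, and where both were, no fold is given. The labels call the samples of a group biological replicates. The regions share 6 rats, but the labels do not say that a number marks a rat, and the fit of 18 arrays takes arrays as independent. A fit with treatment and number as a block over the regions was an alternative, and for the average EB effect this block was random (duplicateCorrelation). The script was tested on simulated data. Alternatives were quantile normalization, a filter on dim probe sets, a replicate block, a title letter block, the arrays of 2 regions alone, leaving out arrays, singly and in sets, and 1 treatment alone. Promoter windows are from RefSeq (GRCr8). Python 3.11.15 searched motifs.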

Additional observations from a re-analysis of the deposited data

Results flagged for a closer look

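In 7 of 111 groups of 6 arrays (1 member in 1 region), a single array lay so far from the others that its gap, divided by the range, exceeded Dixon's critical value of 0.625. Chance flags about 1 in 20 such groups. NTS EB 3 stood out for Parp14, at 7.49 against 6.56 to 6.72 (gap share 0.831), and for Oas1a, at 8.65 against 6.89 to 7.48 (0.662). Usp18 was 9.17 in ARC Oil 2 against 7.52 to 7.87 (0.790), and Gbp2 was 9.00 in ARC Oil 1 against 6.40 to 7.36 (0.630). Tap2 was 7.43 in ARC EB 1 against 6.85 to 7.06 (0.633). Oas2 was 6.34 in PVN EB 3 against 5.82 to 5.98 (0.683), below background throughout, and Samhd1, which degrades deoxynucleotides, was 7.78 in NTS Oil 3 against 7.44 to 7.57 (0.637).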

How the results depend on the processing

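No result changed direction. The count of members passing the study's rule for EB, 0 in each region, became 1 in the ARC (Gbp2) and 1 in the PVN (Parp9) with the title letter, whose meaning is not given, as a block, and 1 in the ARC (Rsad2) without ARC EB 2 and ARC EB 3. Leaving out 1 array gave 0 to 3 in the ARC and 0 in the PVN and NTS. In the NTS the letter coincides with treatment, so that block could not be fitted. Members higher in the ARC than in the PVN numbered 15, and 7 without the 5 arrays that stand apart, 4 with EB arrays only, 9 with Oil arrays only, 10 without ARC Oil 2 and PVN Oil 2 and 11 to 18 without 1 array. The 2 lower members became 0 with the filter on dim probe sets, without the 5 arrays, and with EB or Oil arrays only, 1 without ARC Oil 2 and PVN Oil 2, and 0 to 3 without 1 array. Between PVN and NTS, the 14 lower members became 9 with the filter, which left 23 members, 8 without the 5 arrays, 6 with EB and 5 with Oil arrays only, and 10 to 14 without 1 array. The 2 higher became 1 under each of these 4 settings and 1 to 3 without 1 array. Between ARC and NTS, the 10 higher became 3 with EB arrays only and 9 to 12 without 1 array. The 2 lower became 6 with quantile normalization, 1 with the filter, the replicate block, the 12 arrays of both regions, EB arrays only or without ARC Oil 2 and PVN Oil 2, and 1 to 2 without 1 array. With fewer arrays or probe sets the fits have less to call, and other causes were not tested. The replicate block left the EB counts at 0 and gave 14 and 2 for ARC against PVN, 2 and 13 for PVN against NTS, and 11 and 1 for ARC against NTS (higher and lower). Of 18 pairs of arrays with the same treatment and number in 2 regions, 12 had deviations that correlated above 0 and 8 above 0.1 (r from -0.11 to 0.42). An array was matched best by its own number in 18 of 36 cases. With 3 numbers a group some such matches arise by chance, and the cases reuse the same 18 arrays. Whether a number marks a rat was not tested, so the numbers were not taken as pairs. EB and Oil arrays with the same number in 1 region, which come from different rats, correlated at r from -0.46 to 0.13. The EB or Oil arrays only settings and the one without ARC Oil 2 and PVN Oil 2 were chosen after seeing the data. Among named members, 22 of 276 values lost and 1 gained a call under the other alternatives, and 29 of 504 lost and 2 gained one without 1 array. Signals near background limit 23 of the 37 members.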
